A study of Mus musculus with 14 samples.

Results

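The receptors for glutamate and for GABA were followed through 39 array probes of 33 genes, out of 21582 probes in the deposited table. A probe was included when the array's platform annotation gave it a single gene symbol and that symbol began as an ionotropic glutamate receptor subunit (Gria, Grik, Grid or Grin with a number), a metabotropic glutamate receptor (Grm), a GABA-A receptor subunit (Gabra, Gabrb, Gabrg, Gabrd, Gabre, Gabrp or Gabrq, among others) or a GABA-B receptor (Gabbr1 or Gabbr2). The rule itself uses no measured value. The rule found 5 NMDA, 6 AMPA, 4 kainate, 3 metabotropic, 16 GABA-A and 1 GABA-B probes, 1 probe of the delta receptor Grid1, and 2 probes that enter the counts over all 39 and are not described singly. It also took in 1 probe of Grid2ip, which encodes a protein that binds a delta receptor and is not a receptor subunit. All 39 probes had enough values to be tested, and 28 of them had a value on every one of the 14 arrays. Family members for which the rule found no probe, such as Grin1, were not analysed here.

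Glutamate opens the AMPA, kainate and NMDA receptors, cation channels built of subunits that set the speed and the calcium entry of the excitatory signal, and it acts more slowly on metabotropic receptors that couple to G proteins. GABA opens the GABA-A receptor, a chloride channel of mixed subunits, and acts through GABA-B on G proteins. In immature neurons the chloride gradient is such that GABA can depolarise, and both transmitters act on growing neurons before synapses are mature. Ethanol is known to inhibit NMDA receptors and to strengthen GABA-A currents, which is why these receptors are often named among its direct targets.

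The RNA came from C57Bl6 mouse fetuses, delivered by caesarean section on gestational day 19 from mothers that had free access to food until gestational day 14. In the alcohol-fed group (n = 7) the mothers were exposed to ethanol from gestational day 15 to 18, given as about 180 to 200 mg/dl. In the pair-fed group (n = 7) the mothers received maltose dextrin over the same days, as the titles and protocol name it (maltose dextrose elsewhere in the labels). Each array carried a sample of 1 of these groups in the dye Cy5 beside the same pool in Cy3, the RNA of 7 animals fed freely, called weight-matched controls in 1 label. The length of exposure is given as 4 days in the protocol and 5 in the titles, and no label used here names the tissue. Whether fetuses of a group shared a litter is not said either. The p-values thus describe only how far these samples scattered, and that scatter may be technical.

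Each value was taken as a log2 ratio, and it was read as sample over pool because the labels list the sample's channel before the pool's. The sources used here do not state that direction, and if it were turned every "lower" below would read "higher". Exact zeros and values at the table's ceiling were assumed to stand for missing measurements. They took 2.57% to 14.6% of an array and were set aside. Array medians then ran from -0.62 to 0.68, and each array was set to a median of 0. The pool counts as 1 control sample without a spread of its own, and no array had its dyes swapped. A difference from the pool therefore cannot be told apart from a difference between the dyes, whereas both cancel between alcohol-fed and pair-fed. No signal intensity was used, so the brightness behind a ratio is unknown, and the number of arrays limits the precision. In bulk RNA, fewer cells of a type and less RNA per cell cannot be told apart. A probe is called when its limma p, adjusted by the Benjamini-Hochberg method over all 20876 probes tested, was under 0.05.

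Alcohol-fed and pair-fed fetuses were compared first, the contrast the labels put foremost. None of the 39 receptor probes was called, as none of all probes tested was (0%), and with an unadjusted limma p under 0.05 there were 2 receptor probes, Grik2 and Gabra5, beside 881 of all probes (4.22%). Under each of the other settings tried for this contrast the count of called receptor probes was also 0. The median difference over the 39 probes was -0.00 on the log2 scale, against 0.01 over all probes tested. For 37 of the 39 probes the 95% interval of the difference included 0. A missed threshold does not show that the groups were alike, and the intervals say how far apart they could be: for 32 of 39 probes (82.1%, against 76.8% of all probes) the interval lay within a 4-fold change either way, but for only 5 (12.8%, against 8.84%) within 2-fold. Those 5, inside the grey band in the plot of differences, were Gria1 (its NM_008165 probe), both probes of Gria3, Grin2b and Grin2c.

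**Figure D1:**
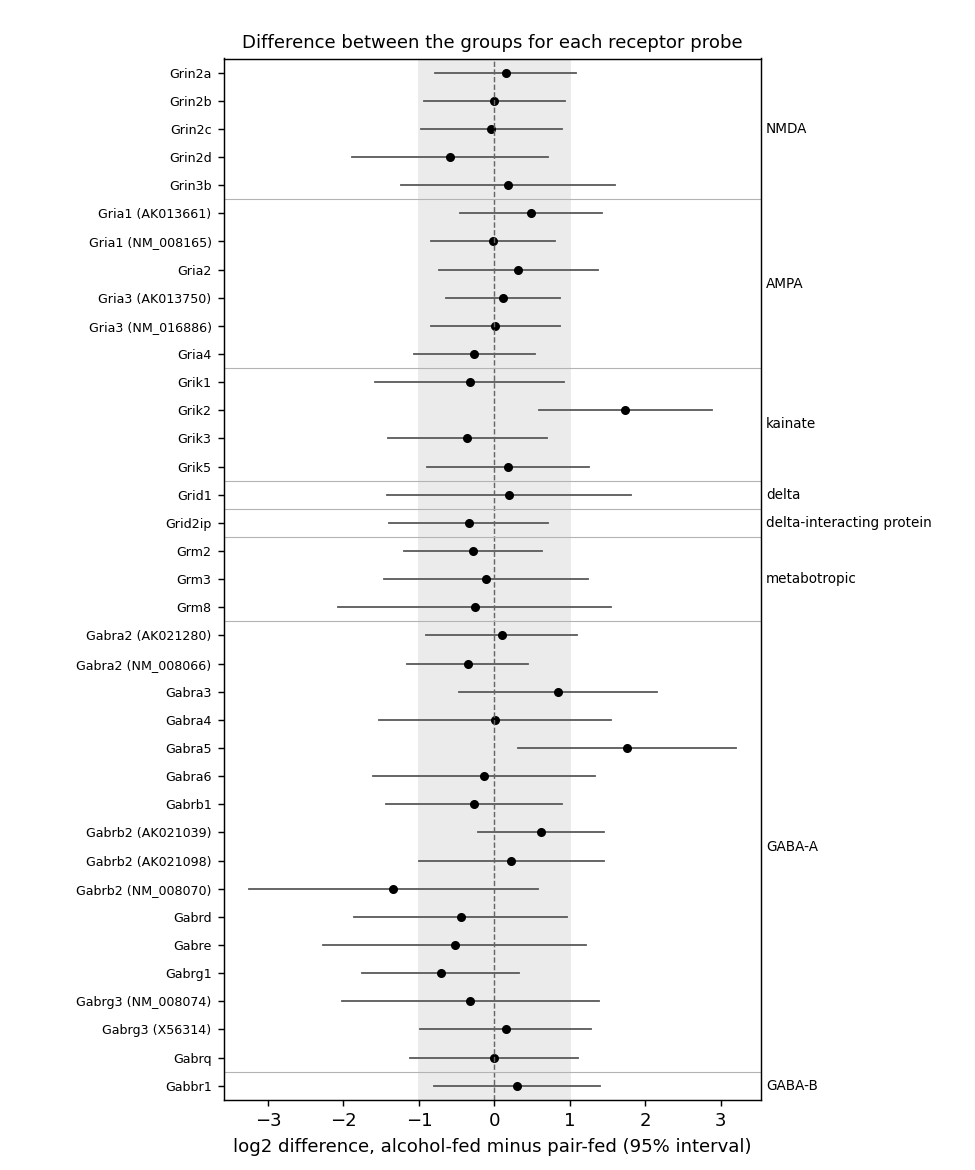
The log2 difference, alcohol-fed minus pair-fed, is plotted for 37 of the 39 probes as a point with its 95% limma interval, grouped by receptor class, and the grey band marks changes of less than 2-fold. Grik2 at 1.73 and Gabra5 at 1.76 are the probes whose intervals lie wholly above 0, and the interval of every other probe plotted includes 0.

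Grik2 encodes a kainate receptor subunit that can form a channel by itself. On the 7 alcohol-fed arrays its ratio to the pool ran from -1.05 through a median of 0.70 to 2.76, and on the 6 pair-fed arrays with a value it ran from -1.82 through -0.76 to 0.16. One alcohol-fed array lay below 0 and 1 pair-fed array above it, so the groups overlapped. Alcohol-fed replicates 1, 5 and 7, the only arrays with low ratios written in steps of 0.001, held 0.98, 2.76 and 1.99. The other alcohol-fed values ran from -1.05 to 0.70, and the part of this recording in the result was not tested. The difference was 1.73 ± 0.54 (limma SE; 95% interval 0.59 to 2.88), a 3.33-fold higher ratio in the alcohol-fed samples. An exact two-sided permutation test over the 1716 ways to label the arrays gave p = 0.00816. The limma p was 0.00541 before adjustment, and after adjustment over all probes it was 0.9996, so this difference did not pass.

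Gabra5 encodes the alpha 5 subunit of the GABA-A receptor, found largely outside synapses and abundant in the hippocampus. Its alcohol-fed values ran from -0.99 through 0.07 to 0.73, whereas the pair-fed values ran from -5.43 through -1.28 to 0.32. The pair-fed arrays were thus more spread, with 6 of 7 below 0 against 3 of 7 alcohol-fed arrays. The difference was 1.76 ± 0.69 (interval 0.31 to 3.20), with an exact permutation p of 0.021 and an adjusted limma p of 0.9996. Leaving out pair-fed replicate 7, which held the lowest value, brought the difference to 1.16. These 2 permutation p-values were the only ones under 0.05 among the 39 computed, and they are not adjusted.

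The next smallest differences by p were smaller still against their error. Gabrb2, a beta subunit common in adult brain, gave 0.62 ± 0.40 with 1 probe (AK021039) and -1.34 ± 0.91 with another (NM_008070), that is, opposite signs for the same gene. Gabrg1 differed by -0.71 ± 0.49 and Gabra3, an alpha subunit prominent in the embryonic brain, by 0.84 ± 0.63. Gria1 (AK013661) differed by 0.49 ± 0.45 and Grin2d by -0.59 ± 0.62. Several of these moved by over 1.5 times without 1 array. Without alcohol-fed replicate 6 the Grin2d difference was -0.11, and without alcohol-fed replicate 2 it was -0.92. Gria1 came to 0.27 without pair-fed replicate 6, Gabra3 to 0.47 without alcohol-fed replicate 4, Gabrg1 to -0.45 without pair-fed replicate 4 and Gabrb2 (NM_008070) to -0.75 without alcohol-fed replicate 5. No member had 2 groups of values that did not overlap (0 of 39).

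Each group was then set against the pool of freely fed animals. Both comparisons use the same pool, so a probe that is low in both is not thereby shown independently in each. In the alcohol-fed samples 13 of the 39 receptor probes (33.3%) were called lower than the pool and none higher, whereas 23.5% of all probes tested were called, 15.5% lower and 8.02% higher. In the pair-fed samples 12 of 39 (30.8%) were called lower and none higher, against 21.3% of all probes called, 13.5% lower and 7.86% higher. The median log2 ratio of the receptor probes was -0.75 in the alcohol-fed and -0.53 in the pair-fed samples, beside 0.01 and -0.03 over all probes. In all, 16 probes of 16 genes were called in at least 1 comparison, 9 of them in both, and 23 in neither.

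The count of lower calls rests on several choices. In the pair-fed comparison it fell from 12 to 5 without pair-fed replicate 1, to 7 without pair-fed replicate 5 and to 7 when the pair-fed arrays were fitted alone. Restricted to probes with a value on all 14 arrays, 7 of 28 receptor probes (25%) were called lower in each comparison with the pool in the same fit, against 10.7% (alcohol-fed) and 10.6% (pair-fed) of all such probes. Probes with missing values lay lower as a class: the 6210 of them had a median of -0.67 in the alcohol-fed samples, and the 11 receptor probes among them had -1.47. That no receptor was called higher also depends on the scaling and on other settings. With the values as deposited, 9 receptor probes were called lower and 1 higher in the alcohol-fed samples and 8 and 2 in the pair-fed samples, the higher ones being Grin2c (both groups) and Gria4 (pair-fed). After quantile normalization the split was 12 and 3 in the alcohol-fed and 11 and 2 in the pair-fed samples. Grik2 and the AK021039 probe of Gabrb2 (both alcohol-fed) were added to the same higher genes. The NM_008070 probe of Gabrb2 was still called lower there in the alcohol-fed samples. Both scalings moved the median of all probes up, from 0.01 to 0.14 in the alcohol-fed samples and from -0.03 to 0.09 and 0.08 in the pair-fed samples.

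Among the members described singly, some calls were lost with other settings. With the values as deposited, those of Gabrb2 (NM_008070), Gabrg1, Grid1 and Grik3 in the alcohol-fed samples and of Gabra6, Grin2a and Grin2d in the pair-fed samples did not pass (adjusted p of 0.0593 to 0.101). Quantile normalization ended the calls of Gabrg1 (alcohol-fed, 0.0502) and Grin2a (pair-fed, 0.073), and requiring at least 2 arrays per group also ended that of Grin2a (0.0519). Keeping the placeholders ended the pair-fed calls of Gabra6, Gabre (0.051) and Grin2d (0.0518), and leaving out the 2 arrays with most placeholders ended those of Gabra5, Grin2a and Grin2d (0.0689 to 0.134). Fitted alone, the pair-fed arrays gave no call for Gabra5, Gabra6, Grid1, Grid2ip and Grin2a (0.0578 to 0.0818), and the alcohol-fed arrays none for Gabrb2 (0.0507).

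**Figure D2:**
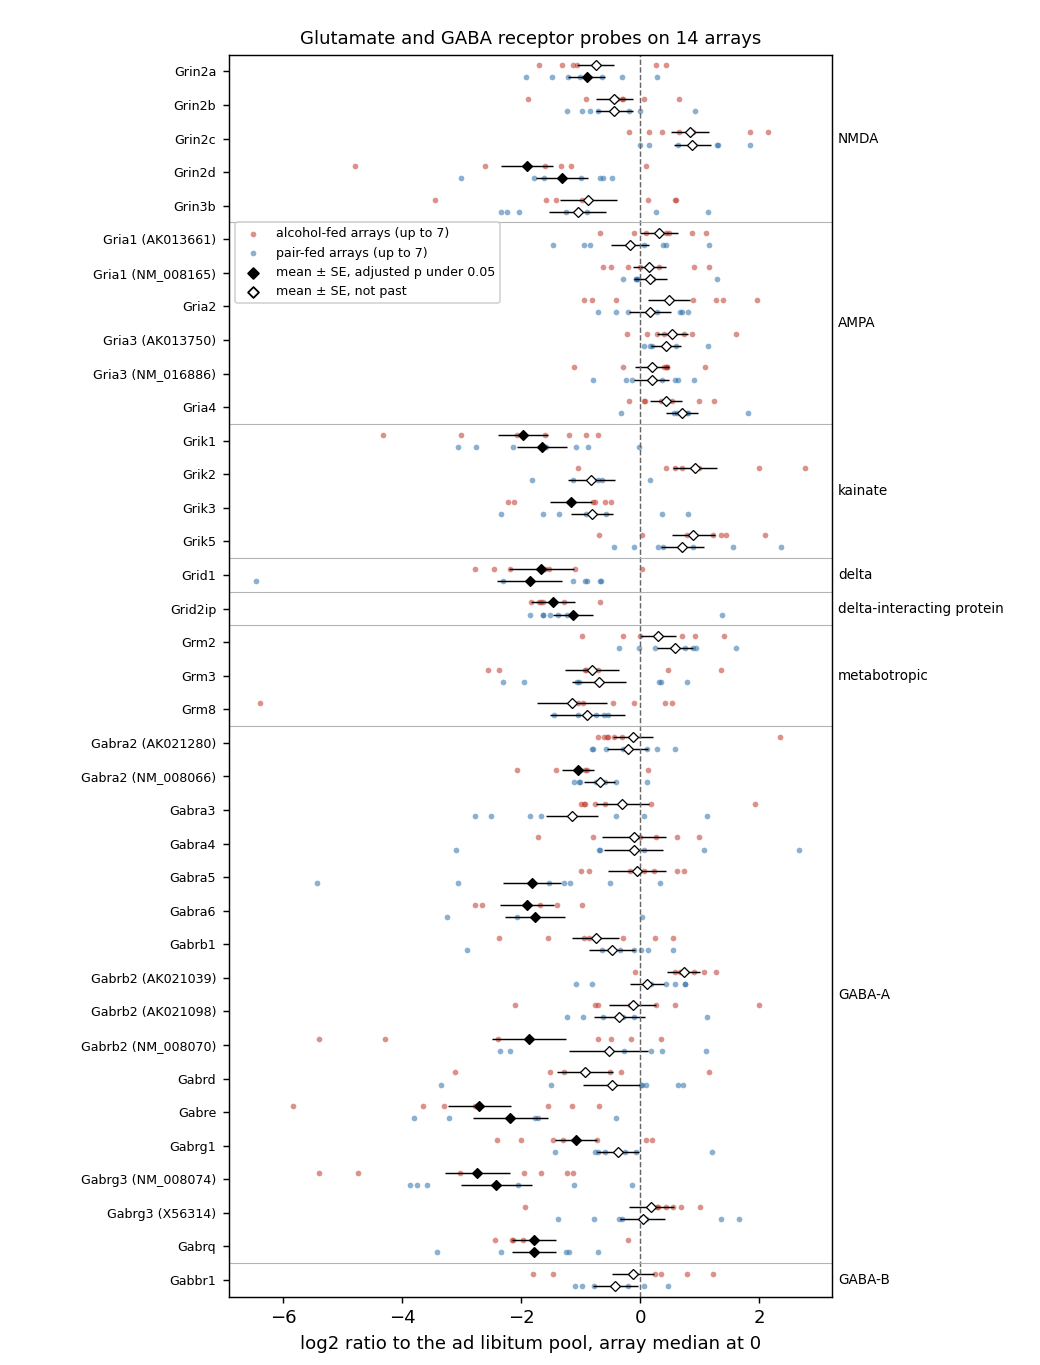
Each of 37 receptor probes is a row, with its log2 ratio to the ad libitum pool on every alcohol-fed array (red) and pair-fed array (blue) and the group's mean ± limma SE (diamonds, filled where the adjusted p was under 0.05). Filled diamonds lie left of 0 throughout, 12 for the alcohol-fed and 10 for the pair-fed samples, and none is in the AMPA or metabotropic rows.

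The AMPA receptors had the highest medians of the classes. They are tetramers of the GluA subunits and carry most fast excitatory transmission, and Gria2 is the subunit that keeps calcium out of the channel. None of the 6 AMPA probes of 4 genes was called in either comparison, and all 6 had a mean above 0 in the alcohol-fed samples, as did 5 of 6 in the pair-fed samples. Their class medians were 0.38 and 0.18. All 6 had a value on every array, and over all such probes the medians were 0.23 and 0.16. Gria2 ran from -0.94 through 0.89 to 1.96 over the alcohol-fed arrays and from -0.72 through 0.27 to 0.80 over the pair-fed arrays, with means of 0.48 ± 0.35 and 0.16 ± 0.35. The Gria4 ratio, with medians of 0.34 and 0.68, gave means of 0.44 ± 0.27 and 0.70 ± 0.27 (adjusted p = 0.242 and 0.0711). In the pair-fed samples it was called higher only under 3 settings. These were the values as deposited, quantile normalization and leaving out pair-fed replicate 2 (adjusted p = 0.0388). The AMPA values were also tight: the median SD between arrays of a group was 0.63 for these probes. It was 0.89 for all probes with a value on every array and 0.96 for all probes tested.

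NMDA receptors open only when glutamate and a co-agonist bind and the membrane is depolarised, and their GluN2 subunits change in the course of development. Grin2d, whose subunit is present early and gives slow channels, was the lowest of the 5 probes. Its alcohol-fed values ran from -4.79 through -1.60 to 0.09 and its pair-fed values from -3.02 through -1.004 to -0.47. Thus 13 of the 14 arrays lay below the pool. The means were -1.90 ± 0.44 (adjusted p = 0.00526) and -1.31 ± 0.44 (adjusted p = 0.0401), 3.74-fold and 2.49-fold lower. The pair-fed call was lost without any one of pair-fed replicates 1, 2, 4, 5 or 6 (adjusted p of 0.0537 to 0.108).

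Grin2a, whose subunit becomes common after birth, was called lower in the pair-fed samples alone, at -0.90 ± 0.32 (adjusted p = 0.0496) against -0.75 ± 0.32 (adjusted p = 0.0901) in the alcohol-fed samples. The medians over arrays were -1.01 and -1.06, and the difference between the groups was 0.15 ± 0.45. Its pair-fed call lay at the threshold and was lost for 10 of the 14 arrays left out in turn, namely alcohol-fed replicates 1, 3, 4, 5 and 7 and pair-fed replicates 1, 2, 4, 5 and 6 (adjusted p of 0.0505 to 0.12). Grin2b, the main GluN2 subunit before birth, was at -0.44 ± 0.31 in both groups and was not called. Its difference of -0.00 had an interval of -0.94 to 0.93, so a change of nearly 2-fold in either direction lies within it. Grin2c, a subunit of the cerebellum in the adult, was on the other side of 0, at 0.83 ± 0.31 and 0.87 ± 0.31 (adjusted p = 0.0624 and 0.0554), and 12 of its 14 values were above the pool. Leaving out alcohol-fed replicate 2 made Grin2c a call in the alcohol-fed samples (adjusted p = 0.0445), and leaving out alcohol-fed replicate 6 or pair-fed replicate 6 did so in the pair-fed samples (0.0385 and 0.0394). Grin3b, a glycine-binding subunit of motor neurons, had means of -0.87 ± 0.48 and -1.05 ± 0.48 and was not called.

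The 4 kainate receptor genes were split. Grik1 was lower than the pool on all 14 arrays, from -4.32 through -1.60 to -0.70 in the alcohol-fed and from -3.06 through -1.59 to -0.02 in the pair-fed samples. Its means of -1.97 ± 0.42 (adjusted p = 0.00316) and -1.65 ± 0.42 (adjusted p = 0.011) were 3.93-fold and 3.13-fold lower, and it was called under every setting tried. Grik3 was called in the alcohol-fed samples, where all 7 arrays lay between -2.23 and -0.49, with a mean of -1.17 ± 0.36 (adjusted p = 0.0252). In the pair-fed samples its mean was -0.81 ± 0.36 (adjusted p = 0.11). Without alcohol-fed replicate 3 or 4 the first call was lost (adjusted p of 0.077 to 0.0788), and without pair-fed replicate 2 the second was gained (0.0429).

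Grik5, a subunit of high affinity that needs a partner to form a channel, had means above 0, 0.89 ± 0.36 and 0.70 ± 0.36 (adjusted p = 0.0812 and 0.169). Leaving out alcohol-fed replicate 2 raised the former to 1.15 (adjusted p = 0.0366). Grik2, described above, stood at 0.91 ± 0.37 in the alcohol-fed samples (adjusted p = 0.0813) and -0.82 ± 0.40 in the pair-fed samples (adjusted p = 0.148). It was called in the alcohol-fed samples only without alcohol-fed replicate 6 (adjusted p = 0.0205), after quantile normalization or with array weights.

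Delta receptors resemble the other ionotropic glutamate receptors in sequence but are not opened by glutamate, and they bridge synapses by binding proteins of the partner cell. Grid1 was lower on 13 of 14 arrays, with medians of -1.61 and -0.93 and means of -1.66 ± 0.54 (adjusted p = 0.035) and -1.86 ± 0.54 (adjusted p = 0.0222). Pair-fed replicate 6 held a value of -6.45, far below the other pair-fed values of -2.30 to -0.66, and without it the pair-fed mean was -1.10 (adjusted p = 0.0351). The alcohol-fed call was lost without any one of alcohol-fed replicates 1, 2, 3, 4, 6 or 7 (adjusted p of 0.0503 to 0.0935), and the pair-fed call without pair-fed replicate 1 (0.0503). Grid2ip, the scaffold that binds the other delta receptor, was at -1.47 ± 0.37 (adjusted p = 0.00954) and -1.13 ± 0.34 (adjusted p = 0.0269). All 6 alcohol-fed values lay between -1.83 and -0.68, and 6 of the 7 pair-fed values between -1.85 and -1.22, the last being 1.37. Its pair-fed call was lost without any one of pair-fed replicates 1 to 5 (adjusted p of 0.0621 to 0.066).

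None of the 3 metabotropic probes was called with all arrays in the fit described above. Grm2 and Grm3 are receptors of group II, which lower cyclic AMP and often sit on the sending side of the synapse, and Grm8 belongs to group III, coupled in the same way. Grm2 had means of 0.30 ± 0.31 and 0.58 ± 0.31. Those of Grm3 were -0.81 ± 0.45 and -0.70 ± 0.45, with values on both sides of 0 in each group. Grm8 gave -1.15 ± 0.58 over alcohol-fed values of -6.39 to 0.53, of which the lowest came from alcohol-fed replicate 6, and -0.27 without that array. All 6 pair-fed values of Grm8 lay between -1.44 and -0.54, with a mean of -0.89 ± 0.63 (adjusted p = 0.324), and without alcohol-fed replicate 6, whose spread enters the shared error, that mean was called (0.0332).

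The GABA-A receptor is a ring of subunits, usually alpha and beta with a gamma, delta, epsilon or theta subunit, and this last one helps to decide where the receptor sits and which drugs bind it. Of the 16 GABA-A probes, 7 (43.8%) were called lower in the alcohol-fed and 5 (31.2%) in the pair-fed samples, beside 15.5% and 13.5% of all probes, and none was called higher. Of these 16 probes only 9 had a value on every array, and among all probes with a missing value 26.9% and 20.2% were called lower. The class medians were -0.84 and -0.51, and 14 of 16 means lay below 0 in each comparison. The calls did not fall on 1 kind of subunit. They took in 2 of 6 alpha probes in each comparison, 1 of 4 and 0 of 4 beta probes, 2 of 3 and 1 of 3 gamma probes, and 2 of 3 in each comparison among the rarer delta, epsilon and theta subunits.

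Of the alpha subunits, Gabra6, known from cerebellar granule cells, had the lowest alcohol-fed mean, -1.90 ± 0.45 (adjusted p = 0.0104), with -1.77 ± 0.51 (adjusted p = 0.0267) in the pair-fed samples. Only 5 alcohol-fed arrays, from -2.77 to -0.98, and 4 pair-fed arrays, from -3.24 to 0.03, held a value. With any one of those 4 left out it fell below the minimum for a test. The pair-fed call was lost with the values as deposited (adjusted p = 0.0785), with the pair-fed arrays alone (0.07) and, at -1.01, with the placeholders kept (0.126). Gabra5 was called in the pair-fed samples, at -1.81 ± 0.49 (adjusted p = 0.014), and had a mean of -0.05 ± 0.49 (adjusted p = 0.946) in the alcohol-fed samples. Its pair-fed mean was -1.21 without pair-fed replicate 7 (adjusted p = 0.0333), and the call was lost without the 2 arrays with most placeholders (-1.14, adjusted p = 0.0689) and with the pair-fed arrays alone (0.0578). Gabra3 had -0.30 ± 0.44 and -1.15 ± 0.44 (adjusted p = 0.636 and 0.0715). Gabra4, at -0.11 in both groups, spread from -3.10 to 2.67 over the pair-fed arrays and was not called.

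The epsilon subunit gene Gabre had the lowest means of the members with a single probe. Its 7 alcohol-fed values ran from -5.83 through -2.78 to -0.70 and its 5 pair-fed values from -3.81 through -1.77 to -0.41, so that no value reached the pool. The means were -2.71 ± 0.53 (adjusted p = 0.00208) and -2.19 ± 0.63 (adjusted p = 0.0222), 6.53-fold and 4.55-fold lower. Without pair-fed replicate 1 or 2 the pair-fed call was lost (adjusted p of 0.0724 to 0.0808). The theta subunit gene Gabrq, in the same group of genes on the X chromosome, was at -1.78 ± 0.37 in both groups (adjusted p = 0.00328 and 0.00357), with values from -2.44 to -0.21 and from -3.41 to -0.72, and it was called under every setting in which it was tested. Gabrd, the delta subunit of receptors outside synapses, spread from -3.11 to 1.15 and from -3.35 to 0.72 and was not called, at -0.93 and -0.48.

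The gamma subunit gene Gabrg1 had alcohol-fed values from -2.41 through -1.29 to 0.20 and a mean of -1.08 ± 0.35 (adjusted p = 0.0324), which was lost without any one of alcohol-fed replicates 1, 4, 5 or 7 (adjusted p of 0.0663 to 0.106). Its pair-fed mean was -0.37 ± 0.35, not called. The beta subunit gene Gabrb1 had means of -0.75 and -0.47 and was not called either.

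Gabbr1, the GABA-B subunit that binds GABA, was at -0.12 and -0.42 with values on both sides of 0, and was not called.

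The order of the classes can be read array by array. The median of the 6 AMPA probes lay above that of the 16 GABA-A probes on 13 of 14 arrays, all 7 alcohol-fed and 6 pair-fed, pair-fed replicate 5 being the exception. On the alcohol-fed arrays the AMPA median ran from -0.10 to 1.13 and the GABA-A median from -1.13 to -0.175. On the pair-fed arrays these ranges were -0.39 to 0.96 and -1.12 to 0.06. The arrays share the pool and the probes, so this is a description and carries no test. The classes also differ in completeness: all 6 AMPA probes had a value on every array, but only 9 of the 16 GABA-A probes. Among all probes, those with a value on every array had medians of 0.23 and 0.16, and those with a missing value -0.67 and -0.57. The NMDA median ran from -1.58 to 0.09 and from -1.92 to -0.19.

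**Figure D3:**
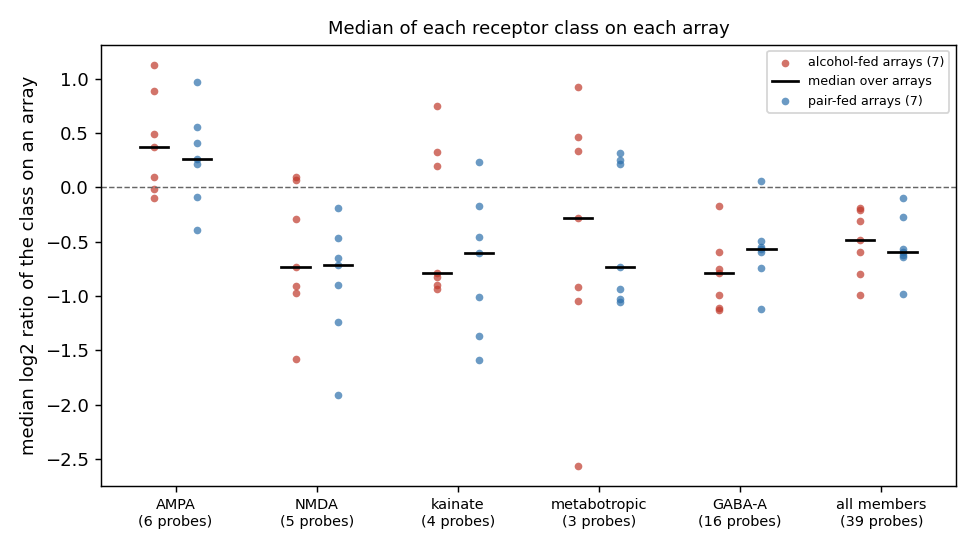
Points give the median log2 ratio to the ad libitum pool over the probes of a class on 1 array, red for alcohol-fed and blue for pair-fed, and black bars give the median over the 7 arrays of a group. AMPA points centre on 0.37 and 0.26, and GABA-A points on -0.79 and -0.57, and the 2 groups overlap within each class.

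Genes with several probes show how far a value belongs to the probe. For Gabrg3 the NM_008074 probe was at -2.73 ± 0.55 (adjusted p = 0.00212) and -2.42 ± 0.59 (adjusted p = 0.00889), the lowest means of all members, while the X56314 probe of the same gene was at 0.19 and 0.04. The former lay below the latter on 13 of the 13 arrays with both, with a median difference of -2.48. For Gabra2 the NM_008066 probe was called in the alcohol-fed samples, at -1.04 ± 0.27 (adjusted p = 0.0105; -0.68 ± 0.27 in the pair-fed samples), and the AK021280 probe was at -0.12 and -0.21. The latter was the higher on 11 of 14 arrays.

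Gabrb2 had 3 probes in disagreement. Its NM_008070 probe ran from -5.39 through -0.71 to 0.35 in the alcohol-fed samples and was called there, at -1.87 ± 0.62 (adjusted p = 0.0371), but not without alcohol-fed replicate 5, 6 or 7 (adjusted p of 0.0793 to 0.118). The AK021039 probe was at 0.73 ± 0.28 (adjusted p = 0.0656) in the same samples and was called higher without pair-fed replicate 6 (0.0462). The AK021098 probe was at -0.13. On 11 of 13 arrays AK021039 lay above NM_008070, by a median of 1.62. The AMPA genes had no such gap: the 2 probes of Gria1 differed by a median of -0.05, with the first higher on 6 of 14 arrays, and those of Gria3 by 0.18, with the first higher on 8 of 14. Calls on a gene with 1 probe have no such comparison.

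**Figure D4:**
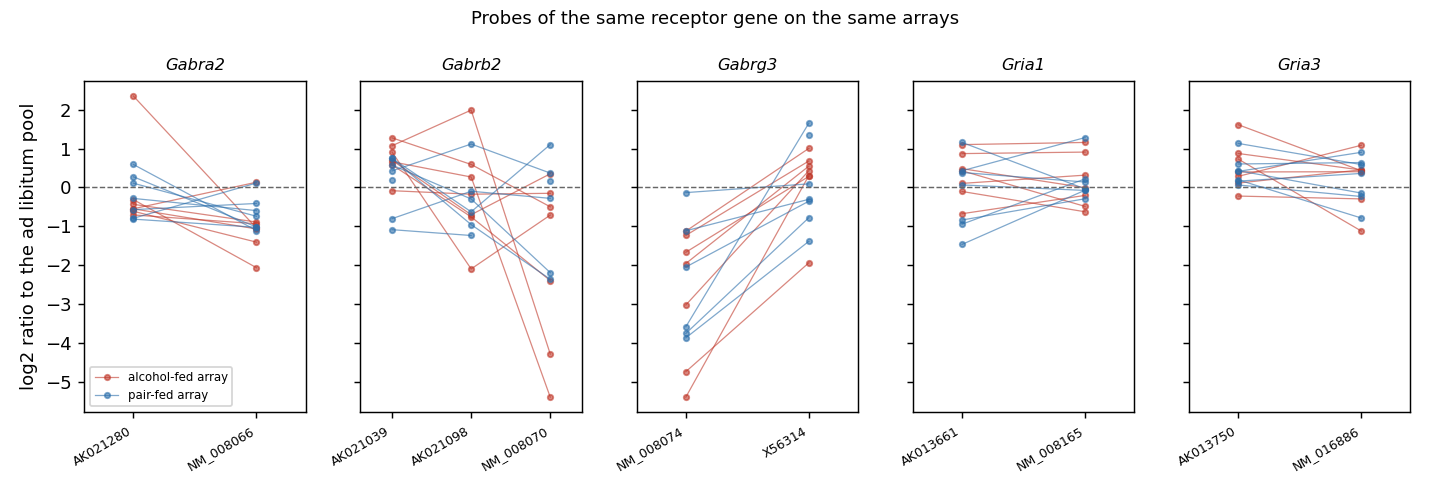
Each line joins the log2 ratios of the probes of 1 gene on the same array, red for alcohol-fed and blue for pair-fed arrays. Every line of Gabrg3 rises from the NM_008074 to the X56314 probe (13 of 13 arrays), most lines of Gabra2 and Gabrb2 fall from left to right, and those of Gria1 and Gria3 cross near 0.

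Many GABA-A receptor genes lie in groups in the genome. By RefSeq's gene order (GRCm38.p6), Gabrg1, Gabra2, Gabra4 and Gabrb1 form a group on chromosome 5, and Gabre, Gabra3 and Gabrq on the X chromosome. Each of these 2 groups also holds 1 other protein-coding gene. Gabra6 and Gabrb2 lie in a group of 4 receptor genes on chromosome 11, and Gabrg3 and Gabra5 in a group of 3 on chromosome 7. The neighbours did not share 1 value. On chromosome 5, Gabrg1 and 1 of 2 Gabra2 probes were called lower in the alcohol-fed samples, and Gabra4 and Gabrb1 in neither comparison. On the X chromosome Gabre and Gabrq were called in both comparisons and Gabra3, between them, in neither.

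Promoters are shown for 4 genes, to set an X-linked GABA-A pair called lower in both comparisons beside 2 AMPA genes that were not called. Each runs from 250 bases before to 50 after the annotated start, 5' to 3' on the gene's strand, in RefSeq's mouse build GRCm38.p6. Capitals mark the GC box (GGGCGG, the core bound by Sp1) and the CCAAT box (CCAAT), each on either strand. The X-linked pair lies at chrX:72274672-72274971 on the minus strand (Gabre) and chrX:72824928-72825227 on the plus strand (Gabrq).
Gabre: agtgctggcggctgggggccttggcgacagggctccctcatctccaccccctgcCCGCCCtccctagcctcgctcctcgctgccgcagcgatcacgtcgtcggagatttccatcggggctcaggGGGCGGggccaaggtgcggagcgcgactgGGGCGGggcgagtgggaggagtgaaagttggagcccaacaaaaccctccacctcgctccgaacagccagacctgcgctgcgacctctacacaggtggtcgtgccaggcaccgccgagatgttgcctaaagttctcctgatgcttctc
Gabrq: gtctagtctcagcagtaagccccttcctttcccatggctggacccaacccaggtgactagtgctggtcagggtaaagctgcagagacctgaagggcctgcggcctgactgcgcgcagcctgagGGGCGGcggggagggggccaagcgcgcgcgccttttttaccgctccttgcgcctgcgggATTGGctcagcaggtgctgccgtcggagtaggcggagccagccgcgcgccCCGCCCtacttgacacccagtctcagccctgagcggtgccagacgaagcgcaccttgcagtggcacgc
The AMPA promoters lie on the minus strand, at chr3:80802786-80803085 (Gria2) and chr9:4796185-4796484 (Gria4).
Gria2: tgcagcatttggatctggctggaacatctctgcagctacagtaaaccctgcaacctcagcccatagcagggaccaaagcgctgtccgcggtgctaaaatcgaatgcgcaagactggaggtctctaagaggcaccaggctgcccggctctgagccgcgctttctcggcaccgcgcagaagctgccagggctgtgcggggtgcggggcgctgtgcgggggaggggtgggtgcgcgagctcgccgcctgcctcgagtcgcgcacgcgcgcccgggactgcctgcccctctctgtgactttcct
Gria4: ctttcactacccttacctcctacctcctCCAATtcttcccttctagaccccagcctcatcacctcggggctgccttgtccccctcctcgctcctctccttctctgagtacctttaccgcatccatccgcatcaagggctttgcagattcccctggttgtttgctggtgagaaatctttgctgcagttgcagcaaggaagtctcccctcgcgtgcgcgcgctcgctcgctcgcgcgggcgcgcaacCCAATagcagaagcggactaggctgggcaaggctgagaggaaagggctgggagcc
Gabre and Gabrq hold 3 and 2 GC boxes at 66.7% and 67% GC, and Gabrq also 1 CCAAT box. Gria4 holds 2 CCAAT boxes at 59.7% GC, and Gria2 holds neither motif at 65.7% GC. These 4 were picked by their calls and do not stand for the other members. Beside Gabre, Gabrq and other called genes, the GC box was also in Gabbr1, Gabra4, Grik5, Grin2c, Grm2, Grm3 and Grm8, none of them called.

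A promoter sequence was found for 26 of the 33 genes. The GC box was in 15 of the 26 (57.7%, against 35.9% of all 27025 promoters of that length), the CCAAT box in 12 (46.2%, against 37.9%) and the TATA box (TATAAA) in 3 (11.5%, against 14.2%). The cAMP response element (TGACGTCA) was in none of the 26 and in 1.88% of all promoters. TTCAGCACC, the left part of the element bound by the neuronal repressor REST, was in Grm2 alone (3.85%, against 0.359%). The median GC content was 64.2% against 52.7%. The 13 genes called against the pool had a median of 59% and the 13 others 65.7%. A match of these letters is a description and shows no binding.

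Other genes of the 2 transmitters were read from lists. Of 15 probes of glutamate and GABA transporters (11 genes), 4 were called lower and none higher in the alcohol-fed samples (26.7% called, beside 23.5% of all probes), and 3 lower and 3 higher in the pair-fed samples (40%, beside 21.3%). Slc1a6, a glutamate transporter of Purkinje cells, was at -1.43 ± 0.30 and -1.43 ± 0.33, and Slc6a11, a GABA transporter of astrocytes, at -1.65 ± 0.40 and -1.63 ± 0.40. Slc1a1, the neuronal glutamate transporter, was called with 1 probe in the pair-fed samples (-1.90 ± 0.54, adjusted p = 0.0207), while its other probe was at 0.61. Of 12 enzyme probes (10 genes), 2 were called lower and 1 higher in each comparison, 25% in each and near the shares over all probes. Gad2, which makes GABA, had 1 probe at -3.32 ± 0.60 and -4.23 ± 0.64 and another at 0.13 and 0.89, called lower and, in the pair-fed samples, higher. Glud1, glutamate dehydrogenase, was at -2.71 ± 0.58 and -2.10 ± 0.71, and Got2, the mitochondrial aspartate aminotransferase, had 1 probe called higher in the alcohol-fed samples (0.95 ± 0.33).

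Of 32 probes of scaffolds and auxiliary proteins (29 genes), 2 were called lower in each comparison, and 3 and 2 higher (15.6% and 12.5% called, below the 23.5% and 21.3% of all probes). Pick1, which binds AMPA subunits and takes part in their uptake from the membrane, was at -3.65 ± 0.30 and -3.60 ± 0.30 (adjusted p = 7.63e-08 and 8.75e-08), and Dlg1, a scaffold of AMPA and NMDA receptors, at -1.99 ± 0.41 and -1.76 ± 0.41. Trak2, an adaptor for transport along microtubules that binds GABA-A receptors, was called higher in the pair-fed samples (1.16 ± 0.29) and stood at 0.39 in the alcohol-fed samples. The medians of this list, 0.23 and 0.04, stood beside -0.75 and -0.53 for the receptors. Of other ligand-gated channels, with 23 probes (22 genes), 8 (34.8%) and 6 (26.1%) probes were called lower, beside 15.5% and 13.5% of all probes, and 1 and none higher. Chrng, the fetal acetylcholine receptor subunit of muscle, was at -5.68 ± 0.69 and -4.87 ± 0.69, P2rx5, an ATP-gated channel, at -3.76 ± 0.33 and -3.91 ± 0.33, and Htr3b, a serotonin-gated channel subunit, at -2.07 ± 0.37 and -1.24 ± 0.40. None of the probes of these 4 lists was called between alcohol-fed and pair-fed.

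Markers of the cell types that could carry these receptors were read beside them, although a ratio to the pool gives no level by which a tissue could be identified. Over all probes, 23.5% were called in the alcohol-fed and 21.3% in the pair-fed samples, against which the marker counts are to be read. Of 13 neuronal marker probes none was called in the alcohol-fed samples, and in the pair-fed samples Nefl, a neurofilament, was called higher (1.10 ± 0.26) and Eno2 lower (-2.71 ± 0.77). The median of this list was 0.33 and 0.38, above 0, and on single arrays it lay between -0.03 and 0.74 (alcohol-fed) and between 0.17 and 0.71 (pair-fed). Over the same arrays the median of the 39 receptor probes lay between -0.99 and -0.19 and between -0.99 and -0.10. The 2 sets differ in completeness: 12 of the 13 neuronal probes had a value on every array, but 28 of the 39 receptor probes. All probes with a value on every array had medians of 0.23 and 0.16, and the 28 receptor probes among them -0.37 and -0.46. Of 15 probes for glia and neural progenitors, 2 were called lower and 1 higher in the alcohol-fed samples and 1 in each direction in the pair-fed samples (20% and 13.3% called), with medians of -0.05 in both. Of 15 skeletal muscle probes, 7 of them for Ryr1, 4 and 3 were called lower and 2 in each comparison higher (40% and 33.3% called). Of 8 liver probes 2 and 3 were called lower (25% and 37.5%), and of 9 trophoblast probes 2 and 1 lower and 3 and 1 higher (55.6% and 22.2%). The part of these cell types in the receptor values was not tested.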

How the data were processed

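RNA was labelled in Cy5 beside the ad libitum pool in Cy3 on 14 arrays, per the labels. The authors deposited 1 table of 21582 probes with no statement of scale, centring or direction. The labels used here do not say how spots were scanned, corrected or normalized. That the deposited values are log2 ratios was read from the values themselves. On 3 arrays, alcohol-fed replicates 1, 5 and 7, 100% of values below -3 are the log2 of a whole number of thousandths. A match was within 0.05 of a step of 0.001, where chance gives 10%, and at most 11.2% matched on the other arrays. The ceiling of 16.61 is the log2 of 1e+05. The arrays with such steps are all alcohol-fed, and the part of this in the differences between the groups was not tested.

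Exact 0 and the ceiling were set to missing (555 to 3155 values per array; 3.11% of the receptor values) and the median of each array was subtracted. Testing required 4 or more values in both groups (at least 4 arrays each), met by 20876 probes. A single two-sided fit of all 14 arrays in limma 3.58.1 (lmFit, eBayes; R 4.3.3; prior df 5.88) gave alcohol-fed minus pair-fed, and the mean of either group against 0. The latter stands for the control comparison, since no control sample other than the pool was hybridised. P-values were adjusted over all probes tested (Benjamini-Hochberg) and called under 0.05. Errors are limma standard errors from 1 spread per probe shared by both groups, so leaving out an array of one group can change a call in the other. The fit was tested on simulated data of independent noise. Such data hold no effect of dye, pool or array, so the test cannot speak to these.

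The receptor probes and gene lists were chosen with earlier results of these data known. Named with values are the members called against the pool (except 2 probes, below), the 8 with the smallest p between the groups, genes with several probes, and up to 3 genes per transmitter list. Further members were added after their values were seen. Of the 39 probes, 2 that were called against the pool in at least 1 comparison are counted but not reported singly. Names come from the platform annotation; all 39 probes matched RefSeq gene numbers and 0 symbols changed. The alternatives tried were values as deposited, quantile and scale normalization, placeholders kept, other minimums of values, array weights, robust eBayes, a replicate block, each group fitted alone, the ratio turned, and leaving out each array in turn or the 2 with most placeholders. At most 0.287% of values were identical between any 2 arrays, so no array was a copy of another. This check cannot tell 2 arrays of the same RNA from 2 samples. Each array was counted as a separate sample.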

Additional observations from a re-analysis of the deposited data

Results flagged for a closer look

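Among the 78 groups of values (39 probes in 2 groups), 9 held an array that stood apart from the rest by Dixon's criterion, which chance gives in about 1 of 20 groups. Alcohol-fed replicate 6 accounted for 3 of them: 2.348 for Gabra2 (AK021280), where the other arrays lay between -0.708 and -0.315, -1.938 for Gabrg3 (X56314), against 0.284 to 1.004, and -6.391 for Grm8, against -1.05 to 0.525. Pair-fed replicate 7 accounted for 2: 1.281 for Gria1 (NM_008165), against -0.292 to 0.219, and 1.365 for the delta receptor's binding protein Grid2ip, against -1.851 to -1.224. The others were 1 each. Gabra3 reached 1.927 on alcohol-fed replicate 4, where the others lay between -0.992 and 0.18. Gabrb1 fell to -2.914 on pair-fed replicate 2, against -0.647 to 0.555. Gabrq was at -0.21 on alcohol-fed replicate 2, against -2.436 to -1.768. Grid1 was at -6.451 on pair-fed replicate 6, against -2.298 to -0.657. Pair-fed replicates 6 and 7 and alcohol-fed replicate 6 were also the arrays with most placeholder values (14.6%, 9.51% and 7.91%), and the part of this in the values was not tested.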

How the results depend on the processing

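Between alcohol-fed and pair-fed, 0 receptor probes were called under every alternative in which this contrast was fitted. The fits of each group alone and the turned ratio concern only the comparisons with the pool. Against the pool, leaving out 1 array at a time gave 10 to 15 calls for the alcohol-fed samples (13 with all arrays), 5 to 14 for the pair-fed samples (12 with all arrays) and 0 to 0 between the groups. The alcohol-fed count was 7 when probes with any missing value were left out, which leaves 28 receptor probes. The pair-fed count was 7 with only the pair-fed arrays in the fit, where fewer samples estimate the spread. Other alternatives gave 10 to 16 and 8 to 13 calls. The alcohol-fed mean of Gabra5 changed sign in 4 settings, from -0.05 to 0.07 as deposited, 0.015 after quantile normalization, 0.104 without alcohol-fed replicate 2 and 0.082 without alcohol-fed replicate 5 (from -0.183 to 0.104 over all arrays left out in turn), never called, and the cause was not tested. Over the 39 probes and 25 other settings for each comparison, calls were lost 24 times and gained 15 times in the alcohol-fed samples, and lost 48 and gained 17 times in the pair-fed samples.

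Whether the replicate numbers pair the samples is not known, and correlations between arrays cannot settle it. Same-numbered arrays correlated in their deviations at -0.077 to 0.184, other pairs at -0.128 to 0.209. For 2 of 7 alcohol-fed arrays the best match among the pair-fed arrays was the one of the same number. With the replicate block the counts were 11 (10 of them the same probes) for the alcohol-fed samples, 11 (8 the same) for the pair-fed samples and 0 between the groups. That block ended the calls of Gabrb2 (NM_008070), Gabrg1 and Grik3 (alcohol-fed) and of Gabra6, Gabrg3, Grid2ip and Grin2a (pair-fed), with adjusted p of 0.0503 to 0.147, and added Grm8 (-1.15, adjusted p = 0.0187; -1.76, 0.00509) in both groups and Grin3b (0.0365) and Gabra3 (0.0296) in the pair-fed samples. Turning the ratio exchanges lower and higher and leaves the counts at 13 and 12. No signal over background was used, so its limits are unknown.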
